A study of Rattus norvegicus with 40 samples.

Results

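The cytochrome P450 genes of families 1 to 4, which hold most of the drug-metabolising P450 enzymes of the liver, were followed through chemically induced liver carcinogenesis in the rat. Members were the rows of the count tables named Cyp1 to Cyp4 followed by a subfamily letter, with a mean of at least 0.1 CPM (counts per 1e6 counted pairs) over all 40 libraries. Of 17337 genes, 55 rows carried such a name and 46 of them reached this level. The other 9 (Cyp1b1, Cyp2a3, Cyp2b12, Cyp2b15, Cyp2b21, Cyp2g1, Cyp4f40, Cyp4f5 and Cyp4x1) were counted and are only named. Family 1 gave 2 members, family 2 gave 27, family 3 gave 5 and family 4 gave 12.

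All animals were male Fischer 344 rats. DEN (diethylnitrosamine) was injected intraperitoneally once a week at 50 mg/kg, starting when the rats were 7 weeks old, and RNA was sequenced from pieces of liver. DEN rats were killed after 8 weeks of injections, after 14 weeks of injections, or at 20 weeks, that is after 14 weeks of injections and 6 weeks without DEN. At 8 weeks non-tumoral liver (NT) was taken, and at 14 and 20 weeks NT liver and 2 tumor nodules (T) came from each rat. Rats of the same ages that received no DEN gave the control livers (no DEN). Each of the 8 groups held 4 rats, 24 rats in all, with NT and T from the same animals, and p-values measure the spread between these rats. At 14 and 20 weeks NT liver is the tissue around the nodules of a rat that carries them.

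Cytochromes P450 are heme enzymes of the endoplasmic reticulum that insert an oxygen atom into drugs, carcinogens, steroids and fatty acids, taking electrons from the reductase Por. Many are set by inducers, through the aryl hydrocarbon receptor for Cyp1a, CAR and PXR for Cyp2b and Cyp3a, and PPARalpha for Cyp4a, and in the rat several differ between the sexes through the pattern of growth hormone release. DEN itself is not reactive until it is hydroxylated in the pericentral hepatocyte, chiefly by Cyp2e1, so the family includes the enzyme that turns the carcinogen on.

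The proximal promoters of Cyp2e1 and of the 4 Cyp2c genes on which the results turn are shown because these genes moved in different directions although the Cyp2c genes lie near each other on chromosome 1. Sequences are from RefSeq (GRCr8), cover the 250 bases before the annotated start, and are written 5′ to 3′ on the strand of the gene. Capitals mark TATAAA and, on either strand, ATTGAT, the core of the site bound by HNF6, a hepatocyte factor.
Cyp2c11, chr1:246174966-246175215, plus strand: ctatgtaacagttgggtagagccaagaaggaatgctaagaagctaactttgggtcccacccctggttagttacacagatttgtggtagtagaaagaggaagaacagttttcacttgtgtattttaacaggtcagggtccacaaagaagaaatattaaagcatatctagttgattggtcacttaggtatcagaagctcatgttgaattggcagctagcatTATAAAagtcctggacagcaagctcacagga
Cyp2c24, chr1:246286091-246286340, plus strand: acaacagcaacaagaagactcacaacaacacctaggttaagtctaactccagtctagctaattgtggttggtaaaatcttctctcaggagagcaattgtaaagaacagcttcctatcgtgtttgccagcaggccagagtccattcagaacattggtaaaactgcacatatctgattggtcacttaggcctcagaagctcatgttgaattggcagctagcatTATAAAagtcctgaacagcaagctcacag
Cyp2c12, chr1:248677035-248677284, minus strand: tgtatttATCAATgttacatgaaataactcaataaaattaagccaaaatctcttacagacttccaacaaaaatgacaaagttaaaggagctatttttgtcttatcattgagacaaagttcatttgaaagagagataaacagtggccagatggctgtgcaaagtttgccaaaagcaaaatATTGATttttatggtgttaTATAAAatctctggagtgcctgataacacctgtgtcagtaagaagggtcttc
Cyp2c7, chr1:247966144-247966393, plus strand: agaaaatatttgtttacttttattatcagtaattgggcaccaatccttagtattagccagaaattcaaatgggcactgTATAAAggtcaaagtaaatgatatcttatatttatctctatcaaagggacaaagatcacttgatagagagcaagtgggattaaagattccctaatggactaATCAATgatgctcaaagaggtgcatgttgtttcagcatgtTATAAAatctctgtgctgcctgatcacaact
Cyp2e1, chr1:205269717-205269966, plus strand: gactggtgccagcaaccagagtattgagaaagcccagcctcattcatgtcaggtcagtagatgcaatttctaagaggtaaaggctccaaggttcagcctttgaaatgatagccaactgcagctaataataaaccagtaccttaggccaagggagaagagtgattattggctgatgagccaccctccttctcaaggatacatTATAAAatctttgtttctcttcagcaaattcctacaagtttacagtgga
Counted from the start, the first base of TATAAA lay 31 bases upstream in Cyp2c11, 29 in Cyp2c24, 52 in Cyp2c12 and 49 in Cyp2e1. Cyp2c7 held it at 31 and again at 172 bases. ATTGAT stood in Cyp2c12 at 71 bases on the strand of the gene and at 243 bases on the other, and in Cyp2c7 at 71 bases on the other strand. Aligned on TATAAA without gaps, Cyp2c11 and Cyp2c24 were identical at 84 of 104 bases (80.8%), against 28.8% to 40.4% for every other pair of the 5. A promoter was matched for 39 of the 46 members. Searched on both strands, TATAAA was in 13 of the 39 and in 12.9% of all 33469 promoters, ATTGAT in 5 (7.1%), GTTAAT (an HNF1 half-site) in 2 (6.45%) and TTCNNNGAA (a STAT5 site) in 3 (7.67%). Overlaps between motifs were not removed, and a match is a description only.

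Depth ran from 20528515 to 160622633 counted read pairs per library, with a median of 30477421. Albumin, the defining hepatocyte transcript, held 10.4% to 19.0% of the counted pairs in every library. Libraries correlated with their own group at 0.935 to 0.998, the lowest being nodule 1 of rat F06. No pair of rats of a group agreed within sampling noise. The DEN groups mixed rats numbered F with rats numbered H, and all rats without DEN were numbered H. At 8 weeks F09 and F10 were numbered F, which left H17 and H18, and at 14 and 20 weeks only F06 and F03 were. In such bulk pieces, fewer cells of a type and less RNA per cell cannot be told apart. CPM were scaled by TMM, a factor that sets most genes equal between libraries, and were not divided by transcript length, so levels are compared between groups and not between genes. Adjusted p-values are from the quasi-likelihood test of edgeR, adjusted over all genes tested by the method of Benjamini and Hochberg, and a gene is said to have risen or fallen at an absolute log2 fold change of at least 0.5 with an adjusted p of at most 0.05.

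More members fell than rose against liver without DEN of the same age, in NT liver and in nodules alike, and 5 genes rose throughout. In NT liver at 8 weeks, 5 members rose and 7 fell of 43 tested, where 16.5% of all 10812 genes tested rose and 5.21% fell. The count that fell was 4 without rat F09, and 11 without the rats numbered F, which left only DEN rats H17 and H18. At 14 weeks, 6 rose and 24 fell of 44, against 22.8% and 9.85% of 11016 genes. At 20 weeks, 6 weeks after the last injection, 5 rose and 10 fell of 44, against 14.3% and 3.82% of 10827. In the nodules, 6 rose and 30 fell of 44 at 14 weeks, against 23.9% and 15.2% of 11316, and 5 rose and 33 fell of 44 at 20 weeks, against 23.6% and 15.2% of 11199. The share of members that fell was above that of all genes in each of the 5 comparisons, and the share that rose was below it. The median log2 fold change of the members was −0.27, −0.59 and −0.35 in NT liver at 8, 14 and 20 weeks, and −0.91 and −0.99 in the nodules at 14 and 20 weeks. The median of all genes lay between −0.01 and 0.02.

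These 5 comparisons share their no DEN livers in part, since NT and T of 1 age are set against the same 4 rats. Cyp1a1, Cyp2c12, Cyp2c24, Cyp3a62 and Cyp4b1 rose in all 5, and Cyp2j10 only in NT liver and nodules at 14 weeks. Cyp1a2, Cyp2c11 and Cyp2c7 fell in all 5. Another 10 members fell in 4 comparisons, 11 in 3 and 11 in 1 or 2. Cyp2j4, Cyp4f17 and Cyp4f6 passed the threshold in none, and Cyp4f18 and Cyp4f37 had too few counts to be tested against liver without DEN. No member rose in 1 of these comparisons and fell in another.

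The scaling sets part of these counts. With library size alone, an alternative added after seeing the data, the median of all genes moved to log2 0.19, 0.44 and 0.24 in NT liver at 8, 14 and 20 weeks and to 0.57 and 0.51 in the nodules at 14 and 20 weeks. The members then gave 8 higher and 3 lower in NT liver at 8 weeks, 9 and 10 at 14 weeks, and 5 and 6 at 20 weeks, and 8 and 14 in the nodules at 14 weeks and 7 and 21 at 20 weeks. Over all genes the split under library size alone was 2483 higher and 186 lower, 4839 and 294, and 2525 and 164 in NT liver at the 3 ages, and 5921 and 422, and 5427 and 477 in the nodules, where TMM scaling gave 1781 and 563, 2507 and 1085, 1543 and 414, 2706 and 1719, and 2642 and 1705. Without any scaling, the members held 1.94% ± 0.15, 2.01% ± 0.13 and 2.19% ± 0.10 of the counted pairs in no DEN liver at 8, 14 and 20 weeks (SD, n = 4 rats here and at each mean). They held 1.66% ± 0.14, 1.45% ± 0.10 and 1.70% ± 0.19 in NT liver, and 1.25% ± 0.11 and 1.21% ± 0.30 in the nodules.

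**Figure D1:**
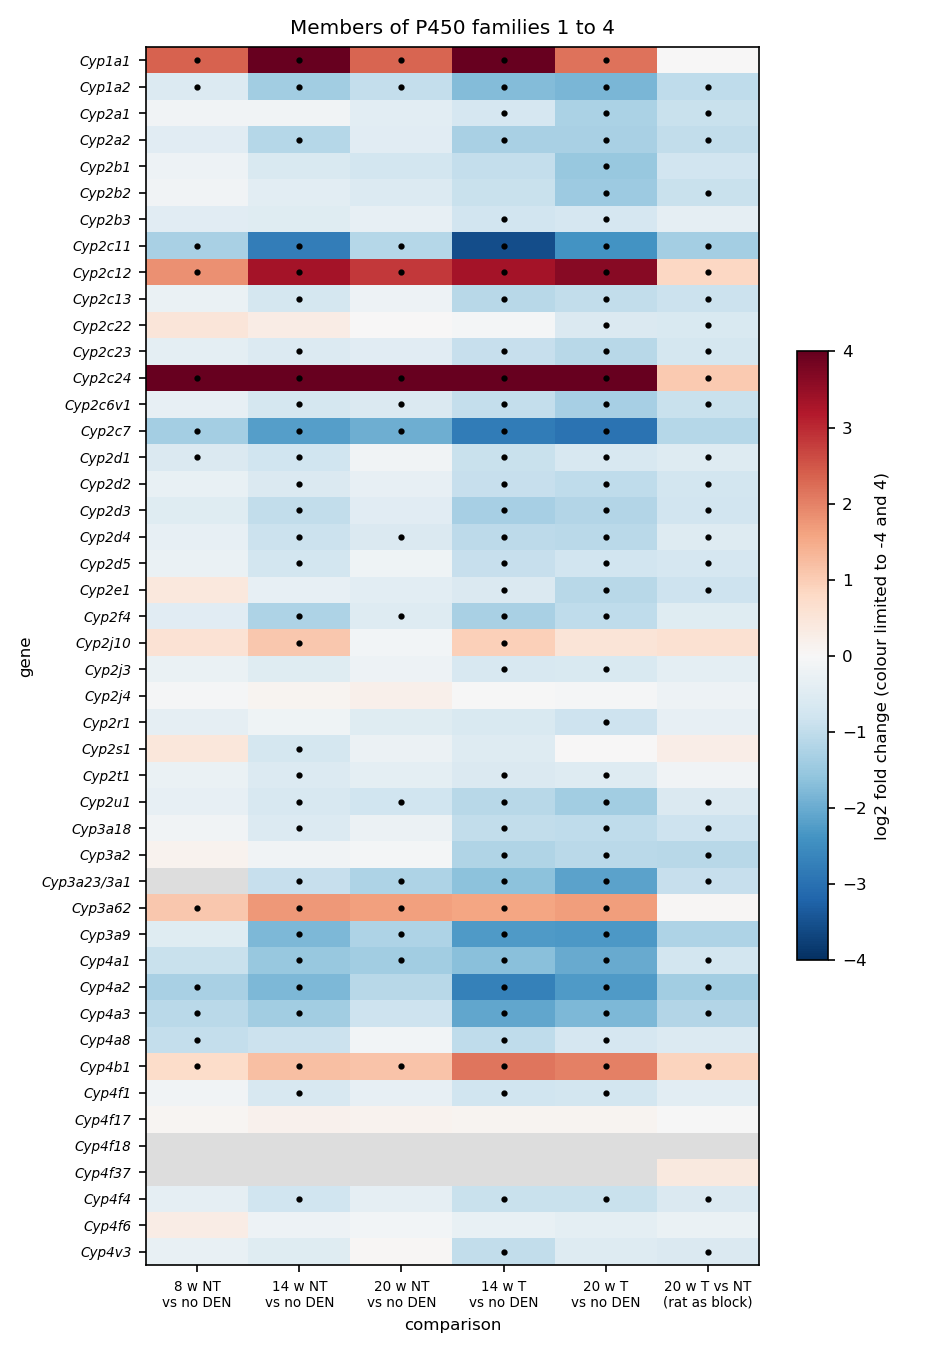
Log2 fold changes of the tested members in NT liver at 8, 14 and 20 weeks and in nodules at 14 and 20 weeks, each against liver without DEN of the same age, with the members ordered by subfamily. The last column gives 20-week nodules against NT liver with the rat as a block. Against liver without DEN, most members lie below 0 and further down in the nodules, where 30 fell at 14 weeks and 33 at 20 weeks, while Cyp2c24, Cyp2c12, Cyp1a1, Cyp3a62 and Cyp4b1 lie above 0 in all 5 comparisons.

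Cyp2c11, the main male-specific testosterone hydroxylase of rat liver, was the most counted member of family 2 by its mean over all libraries, though not in every DEN group. Cyp2c11 fell in all 5 comparisons. Without DEN it stood at 4004, 4541, 3697 and 5076 CPM at 8 weeks, at 5251, 4294, 4442 and 3022 at 14 weeks, and at 4995, 3804, 3719 and 4856 at 20 weeks. NT liver gave 1988, 2119.8, 1681 and 1285 CPM at 8 weeks, 759, 313, 523 and 913 at 14 weeks, and 2769.5, 1966, 1876 and 1257 at 20 weeks. The nodules ranged from 118 to 828 CPM around a median of 309 at 14 weeks, and from 139 to 1783 around 772 at 20 weeks. At each age every DEN library lay below every library without DEN. In NT liver Cyp2c11 fell by 1.30 ± 0.15 (SE) on the log2 scale at 8 weeks (2.46-fold lower, adjusted p = 0.000175), by 2.75 ± 0.33 at 14 weeks (6.74-fold, adjusted p = 0.000199) and by 1.15 ± 0.21 at 20 weeks (2.22-fold, adjusted p = 0.00357). In the nodules it fell by 3.53 ± 0.44 at 14 weeks (11.6-fold, adjusted p = 0.000224) and by 2.38 ± 0.36 at 20 weeks (5.22-fold, adjusted p = 0.000611).

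Cyp2c7, a retinoid-metabolising P450 more abundant in female liver, also fell in all 5 comparisons. Its levels without DEN were 2253, 2633, 4589.5 and 3015 CPM at 8 weeks, 2808, 2846, 3073 and 3679 at 14 weeks, and 1983, 3515, 2412 and 3704 at 20 weeks. NT liver gave 1264, 1203, 1519 and 984 CPM at 8 weeks, 803, 513, 581 and 762 at 14 weeks, and 970.1, 699, 480.1 and 889 at 20 weeks. The nodules ran from 299.8 to 683 CPM with a median of 454 at 14 weeks and from 135 to 808 with a median of 331 at 20 weeks. No DEN library reached the lowest library without DEN of its age. The fall was 1.34 ± 0.23 on the log2 scale at 8 weeks (adjusted p = 0.00175), where it was 2.54-fold. NT liver then fell by 2.21 ± 0.16 at 14 weeks (4.63-fold, adjusted p = 4.93e-06) and by 1.94 ± 0.27 at 20 weeks (3.84-fold, adjusted p = 0.00148). The nodules fell by 2.78 ± 0.17 at 14 weeks (6.88-fold, adjusted p = 7.83e-06) and by 2.96 ± 0.40 at 20 weeks (7.77-fold, adjusted p = 0.000347).

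Cyp2c12, the female-specific steroid hydroxylase that male liver normally keeps low, went the other way. It stood at 20.9, 16.3, 26.8 and 29.8 CPM without DEN at 8 weeks, at 8.73, 22.7, 18.7 and 14.0 at 14 weeks, and at 10.7, 17.2, 7.63 and 12.3 at 20 weeks. NT liver gave 82.5, 72.0, 68.2 and 112 CPM at 8 weeks, 79.2, 245, 166 and 149 at 14 weeks, and 65.8, 58.7, 127 and 85.9 at 20 weeks. Nodules ran from 53.1 to 272 CPM around a median of 174 at 14 weeks and from 97.8 to 269.8 around 136 at 20 weeks. Every DEN library was above every library without DEN, and at 14 weeks rat F06 was the lowest of the DEN rats in both NT liver and nodules. Cyp2c12 rose by 1.82 ± 0.22 on the log2 scale in NT liver at 8 weeks (3.54-fold, adjusted p = 0.000306), by 3.33 ± 0.42 at 14 weeks (10.1-fold, adjusted p = 0.000436) and by 2.82 ± 0.32 at 20 weeks (7.07-fold, adjusted p = 0.00108). The rise in the nodules was 3.34 ± 0.42 at 14 weeks (10.1-fold, adjusted p = 0.000246) and 3.63 ± 0.31 at 20 weeks (12.4-fold, adjusted p = 3.66e-05).

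Cyp2c24, a Cyp2c gene near Cyp2c11, was close to silent in liver without DEN, with 2 to 6 counts per library at 8 weeks, 0 to 7 at 14 weeks and 1 to 5 at 20 weeks. These were 0.216, 0.265, 0.197 and 0.0834 CPM at 8 weeks, 0.108, 0, 0.255 and 0.103 at 14 weeks, and 0.244, 0.0548, 0.194 and 0.129 at 20 weeks. NT liver gave 2.85, 1.51, 3.3 and 7.02 CPM at 8 weeks, 8.74, 29.2, 25.8 and 22.1 at 14 weeks, and 6.22, 9.92, 19.2 and 10.5 at 20 weeks. The nodules ranged from 8.46 to 41.1 CPM around a median of 26.9 at 14 weeks and from 15.0 to 32.1 around 22.9 at 20 weeks. All DEN libraries were above all those without DEN, and rat F06 was again the lowest of the DEN rats at 14 weeks. The log2 rise in NT liver was 4.23 ± 0.58 at 8 weeks (18.8-fold, adjusted p = 0.000578), 7.45 ± 0.63 at 14 weeks (175-fold, adjusted p = 4.65e-05) and 6.18 ± 0.50 at 20 weeks (72.3-fold, adjusted p = 0.000214). It was 7.64 ± 0.61 in the nodules at 14 weeks (200-fold, adjusted p = 2.52e-05) and 7.16 ± 0.32 at 20 weeks (143-fold, adjusted p = 2.26e-06). Without control rat H11 the 14-week values were 8.11 in NT liver and 8.32 in the nodules. With so few control counts these folds are imprecise, and reads that mapped to more than 1 place, as between close copies, were not counted.

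The other 4 Cyp2c members did not rise. Cyp2c13, a male-specific P450, fell by 0.70 in NT liver at 14 weeks and by 1.11 and 0.97 in the nodules at 14 and 20 weeks on the log2 scale. Cyp2c23, the arachidonate epoxygenase of rat liver and kidney, fell by 0.55, 0.91 and 1.11 in the same comparisons, and Cyp2c6v1 by 0.70, 0.95 and 1.34, with a fall of 0.57 in NT liver at 20 weeks as well. Cyp2c22 fell only in the nodules at 20 weeks, by 0.58. Cyp2c members that fell thus numbered 2, 5 and 3 of 8 in NT liver at 8, 14 and 20 weeks, and 5 and 6 of 8 in the nodules.

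**Figure D2:**
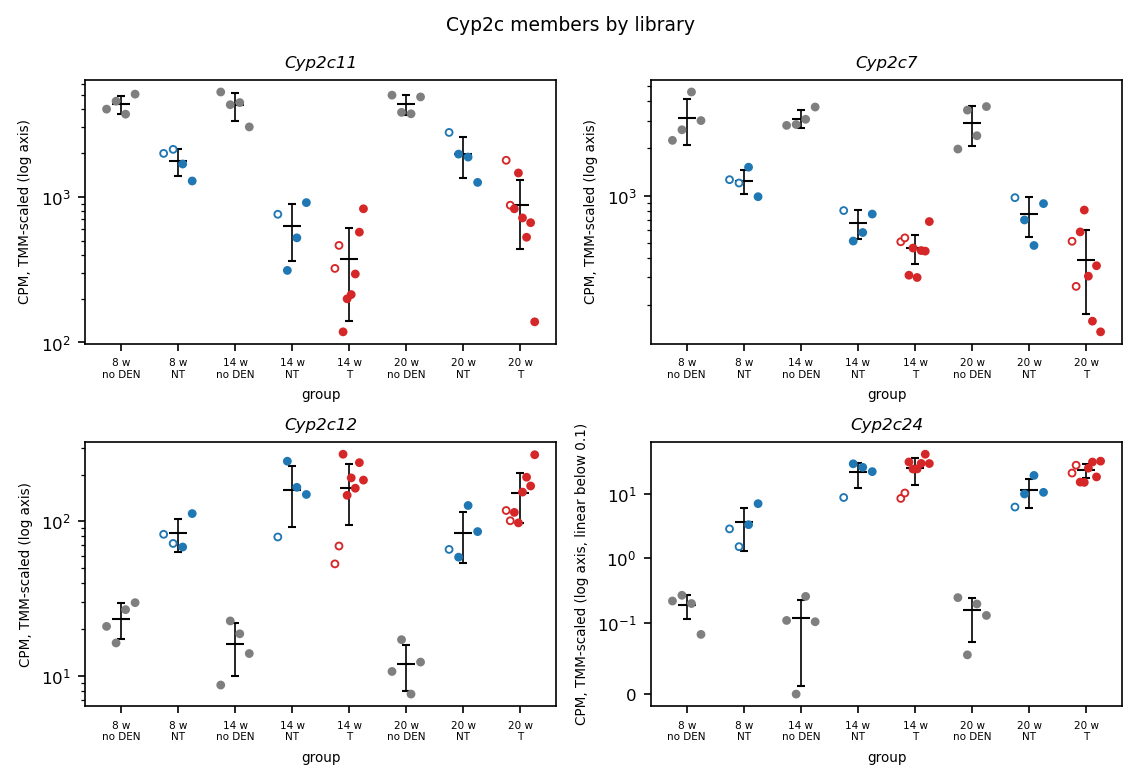
TMM-scaled CPM on a log axis (linear below 0.1 for Cyp2c24) of Cyp2c11, Cyp2c7, Cyp2c12 and Cyp2c24 in every library by group (grey no DEN, blue NT, red T), with bars at the mean ± SD of 4 rats and open circles for rats numbered F. Cyp2c11 and Cyp2c7 lie below the grey points in every DEN group and Cyp2c12 and Cyp2c24 above them, with no overlap at any age.

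Cyp1a1 and Cyp1a2, neighbouring dioxin-inducible genes that activate polycyclic hydrocarbons and aromatic amines, moved apart. Cyp1a1 without DEN gave 0.389, 0.971, 0.75 and 1.42 CPM at 8 weeks, 0.503, 0.577, 0.582 and 0.617 at 14 weeks, and 0.585, 0.439, 0.874 and 1.03 at 20 weeks. In NT liver it gave 3.98, 4.83, 4.91 and 4.62 CPM at 8 weeks, 5.83, 14.6, 11.5 and 16.2 at 14 weeks, and 1.95, 4.66, 6.78 and 1.21 at 20 weeks. The nodules ran from 3.98 to 20.2 CPM around 9.52 at 14 weeks and from 2.26 to 6.18 around 2.75 at 20 weeks. The groups of the same age did not overlap, although rat H28 at 20 weeks came close to the highest control in NT liver. Cyp1a1 rose by 2.36 ± 0.28 on the log2 scale at 8 weeks (5.14-fold, adjusted p = 0.000165), 4.40 ± 0.35 at 14 weeks (21.1-fold, adjusted p = 1.52e-05) and 2.32 ± 0.57 at 20 weeks (5.0-fold, adjusted p = 0.017) in NT liver. In the nodules it rose by 4.19 ± 0.44 at 14 weeks (18.2-fold, adjusted p = 8.72e-05) and by 2.16 ± 0.29 at 20 weeks (4.48-fold, adjusted p = 0.0003). Without control rat H14 the rise in NT liver at 20 weeks did not pass the threshold (log2 2.15, adjusted p = 0.0524).

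Cyp1a2, the constitutive enzyme of the pair and the most counted member of family 1, fell. It was at 417, 592, 394 and 437 CPM without DEN at 8 weeks, at 619.6, 376, 350.3 and 389 at 14 weeks, and at 684, 482, 436 and 611 at 20 weeks. NT liver gave 311, 338, 348 and 262 CPM at 8 weeks, 203, 121, 143 and 187 at 14 weeks, and 258, 358, 239.9 and 286 at 20 weeks. Nodules ranged from 73.0 to 198 CPM around 136 at 14 weeks and from 55.0 to 288 around 150 at 20 weeks. No group with DEN overlapped its control group. NT liver fell by 0.55 ± 0.13 at 8 weeks (adjusted p = 0.00816), 1.40 ± 0.22 at 14 weeks (adjusted p = 0.000806) and 0.96 ± 0.16 at 20 weeks (adjusted p = 0.00235) on the log2 scale. The nodules fell by 1.74 ± 0.24 (adjusted p = 0.000377) and 1.84 ± 0.34 (adjusted p = 0.00152). The fall at 8 weeks was under the threshold without rat H06 (log2 −0.42) or H18 (−0.48), with all groups in 1 fit (adjusted p = 0.106) and with library size alone (−0.36).

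Cyp2e1, the ethanol-inducible enzyme that hydroxylates DEN, did not pass the threshold in NT liver at any age and fell in the nodules. Without DEN it gave 1702, 1839, 1694 and 1518 CPM at 8 weeks, 2267, 1879.7, 1841 and 2322 at 14 weeks, and 2930.0, 2537, 2520.0 and 2521 at 20 weeks. NT liver gave 1822, 2291, 2759 and 2261 CPM at 8 weeks, 2116, 1396, 1469.7 and 1631 at 14 weeks, and 2272, 2315, 1849 and 1447 at 20 weeks. The nodules ran from 851 to 2057 CPM with a median of 1422 at 14 weeks and from 298 to 1948 with a median of 1324 at 20 weeks. At 8 weeks 3 of the 4 NT livers were above all controls of that age, at 14 weeks rat F06 lay among the controls and the other 3 below them, and at 20 weeks all NT livers and nodules were below all 20-week controls. The log2 fold change in NT liver was 0.43 ± 0.12 at 8 weeks (1.35-fold, adjusted p = 0.0203), −0.32 ± 0.14 at 14 weeks (adjusted p = 0.078) and −0.42 ± 0.14 at 20 weeks (adjusted p = 0.0395), none of them reaching the fold threshold. In the nodules Cyp2e1 fell by 0.59 ± 0.20 at 14 weeks (adjusted p = 0.0347) and by 1.12 ± 0.34 at 20 weeks (adjusted p = 0.0184).

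These values rest on few rats. Among rats numbered H alone, which at 8 weeks left only DEN rats H17 and H18, Cyp2e1 rose by 0.59 at 8 weeks (adjusted p = 0.00321). Among the same rats Cyp2e1 fell by 0.80 in the 14-week nodules (adjusted p = 3.44e-05), with a log2 fold change of −0.47 in NT liver at 14 weeks. With library size alone, the values for NT liver at 8, 14 and 20 weeks were 0.63, 0.09 and −0.21, so that the direction at 14 weeks turned, and those for the nodules were −0.03 (adjusted p = 0.905) and −0.68 (adjusted p = 0.039). The nodule fall at 14 weeks did not pass the threshold when any 1 of rats H09, H10, H12, H21, H22 or H23 was left out (log2 −0.65 to −0.47, adjusted p 0.0507 to 0.0896). The fall at 20 weeks did not pass without rat H26 (log2 −1.0, adjusted p = 0.052).

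In family 3, whose Cyp3a enzymes hydroxylate steroids and many drugs, 1 member rose and the others fell late. Cyp3a62, more abundant in female rat liver and in intestine, stood at 7.69, 9.54, 4.89 and 9.13 CPM without DEN at 8 weeks, against 17, 19.9, 13.2 and 16.4 in NT liver. At 14 weeks it was at 6.97, 6.06, 8.58 and 5.86 without DEN and at 13.8, 28, 28.1 and 21.6 in NT liver, and at 20 weeks at 7.61, 4.93, 9.13 and 8.68 against 17.9, 29.1, 29.1 and 19.3. Nodules ran from 9.37 to 30.7 CPM around 21.4 and from 21.4 to 27.8 around 25.1, above all controls of the same age. The log2 rise was 1.08 ± 0.19 (adjusted p = 0.00168), 1.74 ± 0.24 (adjusted p = 0.000331) and 1.64 ± 0.22 (adjusted p = 0.00113) in NT liver and 1.57 ± 0.24 (adjusted p = 0.000657) and 1.66 ± 0.16 (adjusted p = 6.29e-05) in the nodules.

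Cyp3a18, a male-biased steroid hydroxylase and the most counted of its family, was at 473, 585, 511 and 574 CPM without DEN and 485, 551, 508 and 408 in NT liver at 8 weeks. At 14 weeks it was at 594, 508, 601 and 606 without DEN against 425, 347, 372 and 423 in NT liver, and at 20 weeks at 885, 718, 633 and 776 against 593, 746, 736 and 485. Its nodules ran from 213 to 391 CPM around 299 at 14 weeks and from 143 to 606 around 387 at 20 weeks, below all controls of the same age. NT liver overlapped the controls at 8 and 20 weeks and not at 14 weeks. Cyp3a18 fell by 0.55 on the log2 scale in NT liver at 14 weeks (adjusted p = 0.000643) and by 0.99 and 1.01 in the nodules at 14 and 20 weeks (adjusted p = 0.000105 and 0.00721). With library size alone the fold changes at 14 weeks were −0.13 in NT liver and −0.43 in the nodules, neither past the threshold, and without rat H21 the value in NT liver was −0.50, just short of it.

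Cyp3a9, a member more abundant in female liver, gave 51.3, 73.7, 52.3 and 82.2 CPM without DEN at 8 weeks, 108, 55.3, 56.0 and 42.2 at 14 weeks, and 143, 72.1, 67.1 and 94.2 at 20 weeks. In NT liver it gave 44.7, 49.6, 51.9 and 39.0 CPM at 8 weeks, 23.7, 12.6, 18.5 and 20.3 at 14 weeks, and 41.7, 48.5, 37.7 and 33.9 at 20 weeks. The nodules ranged from 7.12 to 25.3 CPM around 13 and from 4.19 to 36.1 around 19.0. At 8 weeks the groups overlapped, and at 14 and 20 weeks they did not overlap. Cyp3a9 fell by 1.79 ± 0.33 (adjusted p = 0.00235) and 1.22 ± 0.23 (adjusted p = 0.00579) in NT liver at 14 and 20 weeks, and by 2.26 ± 0.37 (adjusted p = 0.000944) and 2.29 ± 0.41 (adjusted p = 0.00143) in the nodules. The log2 fold change at 8 weeks was −0.49, short of the fold threshold. Cyp3a2, the other male-biased member, fell only in the nodules, by 1.20 at 14 weeks and 1.07 at 20 weeks, with log2 values of 0.14, −0.13 and −0.07 in NT liver. The row Cyp3a23/3a1 had at most 64 counts in any library and close copies, and its falls of 0.91 to 2.14 on the log2 scale are uncertain.

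The Cyp4a genes, omega-hydroxylases of fatty acids under PPARalpha, were among the most reduced members. Cyp4a2, a male-biased member, stood at 393, 666, 736 and 522 CPM without DEN at 8 weeks, 726, 727, 737 and 669 at 14 weeks, and 496, 534, 684 and 759.6 at 20 weeks. NT liver gave 148, 115, 417 and 269 CPM at 8 weeks, 203, 171, 185 and 259 at 14 weeks, and 134, 478, 329 and 209 at 20 weeks. Nodules ranged from 27.2 to 203 CPM around 115 at 14 weeks and from 30.9 to 401 around 89.0 at 20 weeks. The groups overlapped at 8 weeks alone, where rats F09 and F10 were the lowest. Cyp4a2 fell by 1.29 ± 0.39 on the log2 scale at 8 weeks (adjusted p = 0.031) and by 1.80 ± 0.12 at 14 weeks (adjusted p = 3.54e-06) in NT liver, with a value of −1.12 at 20 weeks (adjusted p = 0.0574). In the nodules it fell by 2.71 ± 0.30 (adjusted p = 0.000123) and 2.27 ± 0.53 (adjusted p = 0.00524) at 14 and 20 weeks. Without rat H25 the log2 fold change at 20 weeks was −3.16. The 8-week fall did not pass the threshold without F09, F10 or H07 (log2 −1.14 to −1.06), nor without both rats numbered F (−0.75).

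Cyp4a1 was at 255, 402, 413 and 458 CPM without DEN at 8 weeks, 614, 432, 488 and 393 at 14 weeks, and 365, 388, 669 and 634 at 20 weeks. In NT liver it was at 106, 98.9, 355 and 275 CPM at 8 weeks, 159, 136, 171 and 205 at 14 weeks, and 92.2, 342, 227 and 137 at 20 weeks, and its nodules ran from 92.7 to 245 around 152 and from 49.6 to 304 around 90.6. As with Cyp4a2, rats F09 and F10 were lowest at 8 weeks, and only there did the groups overlap. Cyp4a1 fell by 1.51 ± 0.16 (adjusted p = 4.83e-05) in NT liver at 14 weeks and by 1.38 ± 0.43 (adjusted p = 0.048) at 20 weeks, a call lost when any 1 of 6 rats (F03, H14, H15, H16, H26 or H28) was left out (log2 −1.50 to −1.14). It fell by 1.67 ± 0.21 (adjusted p = 0.000224) and 2.03 ± 0.46 (adjusted p = 0.0045) in the nodules. Without rat H25 the log2 fold change of the 20-week nodules was −2.72.

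Cyp4a3, a close relative of Cyp4a2 that may share reads with it, was at 79.2, 107, 114 and 85.2 CPM without DEN and 27.6, 24.7, 76.0 and 54.1 in NT liver at 8 weeks. It was at 121, 118, 136 and 118 against 43.9, 41.5, 44.1 and 57.8 at 14 weeks, and at 90.4, 93.4, 132 and 152 against 33.5, 108, 79.4 and 44.3 at 20 weeks. The nodules ran from 20.0 to 46.3 around 29.6 and from 8.63 to 95.3 around 23.9. The groups were apart at 8 and 14 weeks, and at 20 weeks the NT liver and 1 nodule of rat H25 reached into the controls. Cyp4a3 fell by 1.08 (adjusted p = 0.0363) and 1.39 (adjusted p = 5.81e-06) in NT liver at 8 and 14 weeks and by 2.08 (adjusted p = 2.48e-05) and 1.80 (adjusted p = 0.0112) in the nodules. The value for the 20-week nodules was −2.59 without rat H25. The 8-week fall was lost without F09, F10, H06 or H07 (log2 −1.04 to −0.87). Cyp4a8 fell at 8 weeks and in the nodules at both ages, by 0.95, 1.01 and 0.67.

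Cyp4b1, an enzyme of lung and kidney that activates furans and aromatic amines, rose and was highest in the nodules. Without DEN it was at 4.97, 6.23, 4.54 and 7.59 CPM at 8 weeks, 5.35, 5.77, 6.22 and 6.21 at 14 weeks, and 6.97, 6.14, 3.74 and 5.2 at 20 weeks. NT liver gave 11.2, 10.8, 8.31 and 8.63 CPM at 8 weeks, 11, 11.7, 20.2 and 11.4 at 14 weeks, and 11.6, 12.9, 10.9 and 13 at 20 weeks. Nodules ran from 12.8 to 51.7 CPM around 24.5 at 14 weeks and from 11.9 to 37.5 around 19.9 at 20 weeks. No DEN library overlapped the controls. The log2 rise was 0.73 ± 0.17 (adjusted p = 0.00697), 1.21 ± 0.20 (adjusted p = 0.000574) and 1.13 ± 0.16 (adjusted p = 0.00113) in NT liver and 2.14 ± 0.29 (adjusted p = 0.000325) and 2.01 ± 0.21 (adjusted p = 8.63e-05) in the nodules. Without the rats numbered F, which left only DEN rats H17 and H18, the 8-week value was 0.55 and did not pass (adjusted p = 0.0647).

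Cyp4f1, a leukotriene B4 and fatty acid hydroxylase, was the most counted member of family 4. It gave 916, 1072, 859 and 941 CPM without DEN and 941, 1024, 734 and 790.4 in NT liver at 8 weeks. At 14 weeks it gave 756, 887, 849 and 895 against 548, 503, 528 and 569, and at 20 weeks 797, 793, 769 and 877 against 739, 713, 544 and 594. Its nodules ran from 413 to 561 around 521 and from 339 to 747 around 495. The groups overlapped at 8 weeks and were apart at 14 and 20 weeks. Cyp4f1 fell by 0.65 in NT liver at 14 weeks (adjusted p = 0.000119) and by 0.80 and 0.74 in the nodules (adjusted p = 0.000205 and 0.00501), with a value of −0.33 in NT liver at 20 weeks. With library size alone the 3 values that had passed lay between −0.26 and −0.22, and none reached the fold threshold. Cyp4f4 fell in the same 3 comparisons, by 0.79, 0.90 and 0.89, while Cyp4f17 and Cyp4f6 passed in none. Cyp4f37 had 0 to 2 counts in every control, 0 to 62 in NT liver and 0 to 29 in the nodules, in libraries of unequal depth. Its scaled means were 0.0664, 0.217 and 0.188 CPM in NT liver at 8, 14 and 20 weeks, and 0.328 and 0.255 in the nodules at 14 and 20 weeks. Cyp4f37 reached the level set for members only through the DEN groups, so its higher counts there follow from that choice.

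Among the remaining family 2 members, the 5 Cyp2d genes, relatives of the human debrisoquine hydroxylase and close copies of each other, all fell in NT liver at 14 weeks and in the nodules at both ages. Their log2 fold changes lay between −1.0 and −0.57 at 14 weeks in NT liver and between −1.31 and −0.90 in the nodules of that age. Only Cyp2d1 fell at 8 weeks (−0.56) and only Cyp2d4 in NT liver at 20 weeks (−0.59). Cyp2a2, a male-specific testosterone hydroxylase, fell by 1.15 in NT liver at 14 weeks and by 1.30 and 1.31 in the nodules, and its female-biased neighbour Cyp2a1 only in the nodules, by 0.68 and 1.26. The phenobarbital-inducible Cyp2b1 and Cyp2b2, near-identical copies, fell only in the 20-week nodules, by 1.52 and 1.47.

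Cyp2f4, which activates naphthalene in the lung, gave 90.8, 98.4, 84.1 and 86.1 CPM without DEN at 8 weeks, 88.6, 89.5, 92.4 and 95.4 at 14 weeks, and 74.5, 76.9, 73.7 and 79.6 at 20 weeks. NT liver gave 66.2, 78.7, 56.3 and 62.6 CPM at 8 weeks, 40.2, 33.4, 37.4 and 45.0 at 14 weeks, and 66.2, 57.5, 42.1 and 47.0 at 20 weeks. Its nodules ran from 26.1 to 46.4 CPM around 37.7 and from 26.3 to 63.8 around 36.8. It never overlapped the controls of the same age. Cyp2f4 fell by 1.22 (adjusted p = 4.44e-06) and 0.53 (adjusted p = 0.00973) in NT liver at 14 and 20 weeks and by 1.31 (adjusted p = 6.37e-05) and 1.01 (adjusted p = 0.000984) in the nodules, and its log2 fold change at 8 weeks was −0.46. The fall in NT liver at 20 weeks was under the threshold without rat H26 (−0.43) or H28 (−0.48). The vitamin D 25-hydroxylase Cyp2r1 fell only in the 20-week nodules (−0.82), and Cyp2u1, a long-chain fatty acid hydroxylase, in all but the 8-week comparison, by 0.64 to 1.39.

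**Figure D3:**
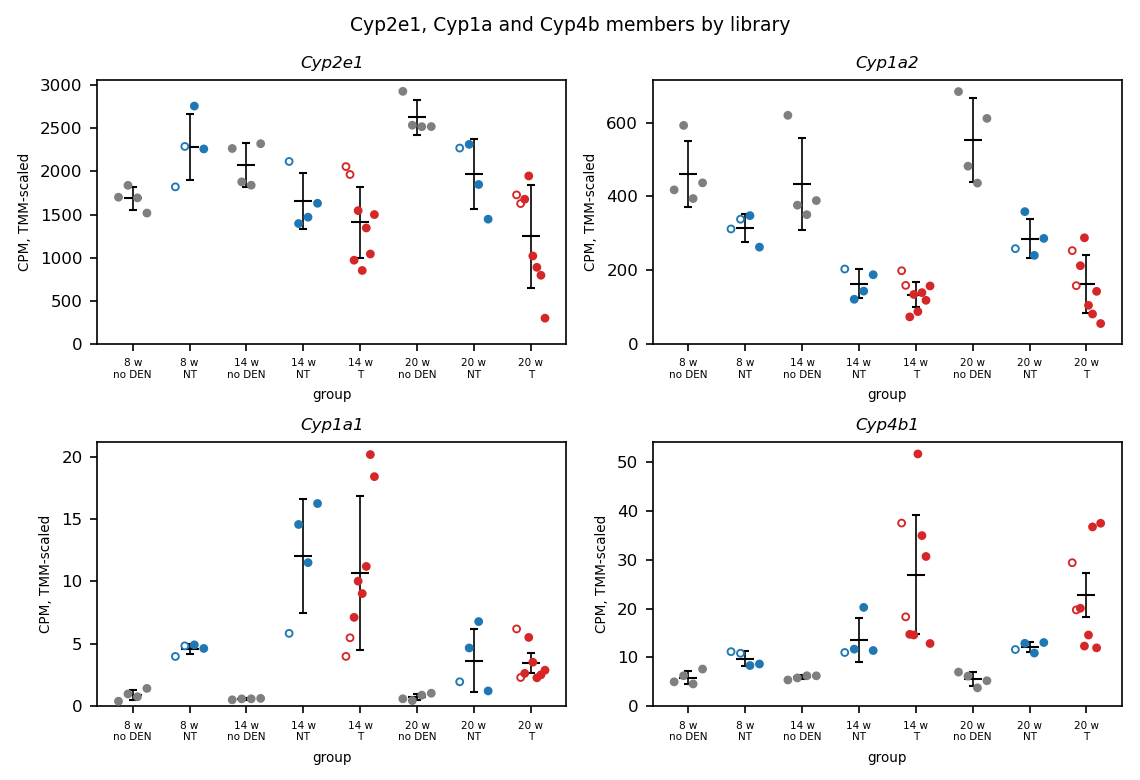
TMM-scaled CPM on linear axes of Cyp2e1, Cyp1a2, Cyp1a1 and Cyp4b1 in every library by group, colored as for Cyp2c, with bars at the mean ± SD of 4 rats and open circles for rats numbered F. Cyp1a1 and Cyp4b1 rise in the DEN groups, Cyp1a2 falls, and Cyp2e1 reaches down to 298 CPM in the nodules at 20 weeks.

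Summed within subfamilies, the extent of loss differed from 1 subfamily to another. The Cyp2c sum was 13112 ± 1309 CPM without DEN and 8530 ± 577 in NT liver at 8 weeks, 13275 ± 951 and 6139 ± 557 at 14 weeks, and 14134 ± 1254 and 8560.4 ± 1012 at 20 weeks. It was 4768 ± 557 in the nodules at 14 weeks and 5099 ± 1582 at 20 weeks, 0.359 and 0.361 of the control sum. The Cyp4a sum in the nodules was 0.228 and 0.238 of the control sum at the same ages, Cyp1a 0.331 and 0.298, Cyp2a 0.473 and 0.426, Cyp3a 0.489 and 0.495, Cyp2d 0.501 and 0.515, Cyp2b 0.597 and 0.581, and Cyp4f 0.604 and 0.633. Cyp4a was thus the most reduced of these listed sums and Cyp4f the least, and Cyp4b1 stood at 4.57 and 4.13 times its control. Among the sums not listed, Cyp2e stood at 0.679 and 0.475, Cyp2j at 0.751 and 0.782, and Cyp2u at 0.470 and 0.390. All members together summed to 24393 ± 1293 CPM without DEN, 13062 ± 1440 in NT liver and 10505 ± 1089 in nodules at 14 weeks, and to 26427 ± 2012, 17691 ± 2480 and 10999 ± 3625 at 20 weeks. These sums are weighted toward the abundant members and were not tested.

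**Figure D4:**
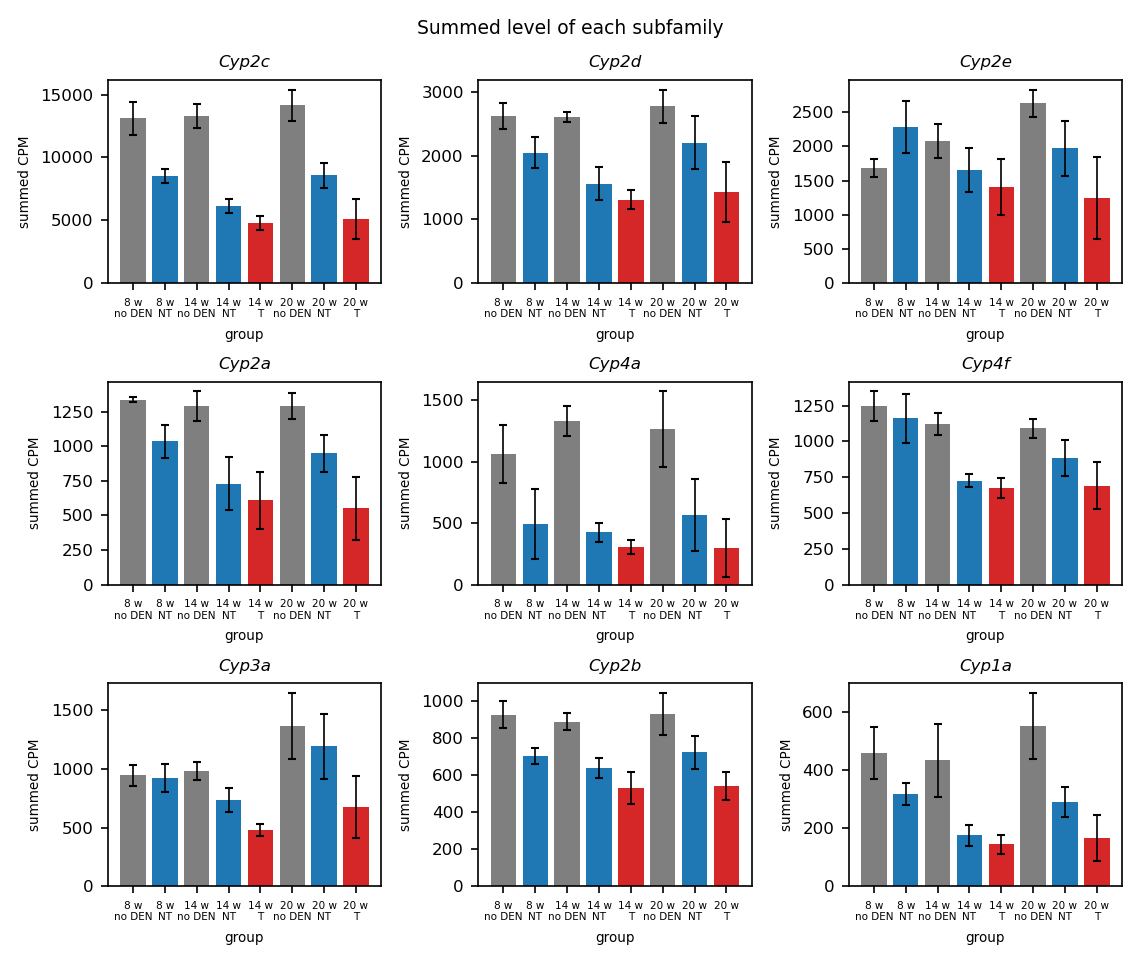
Summed TMM-scaled CPM of the Cyp2c, Cyp2d, Cyp2e, Cyp2a, Cyp4a, Cyp4f, Cyp3a, Cyp2b and Cyp1a subfamilies by group. Bars give the mean and error bars the SD of 4 rats. The Cyp2c sum falls from 13275 CPM without DEN to 6139 in NT liver and 4768 in nodules at 14 weeks, while the Cyp2e sum is highest in NT liver at 8 weeks among the 8-week groups.

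Nodules were then set against NT liver of the same rats. Without the pairing, no member rose or fell at 14 weeks (0% of 11466 genes rose and 0% fell; at an unadjusted p under 0.05 there were 11 members and 1348 genes, and DESeq2 called 1 member lower). The same held at 20 weeks (0% of 11546 genes rose and 0% fell; 25 members and 2767 genes at an unadjusted p under 0.05, DESeq2 called 2 members higher and 8 lower, and without rat H25 1 rose and 4 fell). With the rat as a block, again 0% of genes passed in either direction at 14 weeks, and 21 members had an unadjusted p under 0.05. At 20 weeks the block gave 3 members higher and 24 lower of 45 tested, where 9.21% of all genes rose and 5.46% fell, and the median log2 fold change of the members was −0.58.

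In the paired fit at 20 weeks, the 3 that rose were Cyp2c12 (0.82 ± 0.13, adjusted p = 0.00195), Cyp2c24 (1.05 ± 0.28, adjusted p = 0.0497) and Cyp4b1 (0.88 ± 0.15, adjusted p = 0.00379), genes already raised in NT liver. Cyp4a2 fell by 1.39 ± 0.23 (adjusted p = 0.00733), Cyp2c11 by 1.35 ± 0.17 (adjusted p = 0.000297) and Cyp4a3 by 1.16 (adjusted p = 0.0121). Cyp1a2 fell by 1.00 ± 0.25 (adjusted p = 0.0321) and Cyp2e1 by 0.84 ± 0.19 (adjusted p = 0.00838). Cyp1a1 and Cyp3a62, which rose against liver without DEN, gave 0.03 (adjusted p = 0.973) and 0.06 (adjusted p = 0.762), and Cyp2c7 gave −1.14 (adjusted p = 0.0845). Of the 43 members at or above 1 CPM, 30, 38, 35 and 37 were lower in the nodules of rats F06, H21, H22 and H23 at 14 weeks, and 33, 38, 38 and 34 in those of F03, H25, H26 and H28 at 20 weeks. The median log2 ratio within a rat was −0.21, −0.19, −0.26 and −0.26 at 14 weeks and −0.31, −0.34, −0.68 and −0.81 at 20 weeks. Over all 10154 genes at or above 1 CPM, 46.3% to 54.1% were lower in the nodules of a rat, with medians from −0.02 to 0.02, beside 69.8% to 88.4% of the members.

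**Figure D5:**
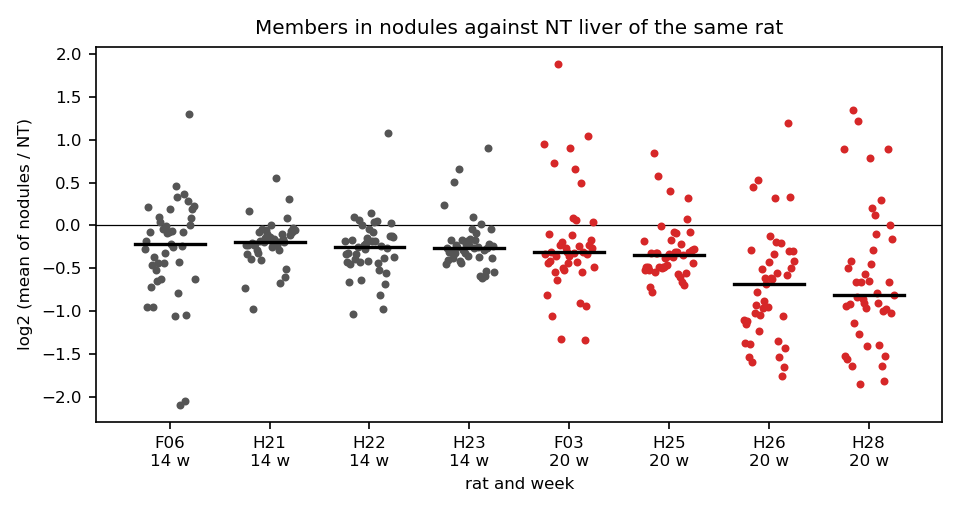
Log2 ratio of the mean of the nodules to NT liver of the same rat for the members of at least 1 CPM, with 4 rats at 14 weeks and 4 at 20 weeks. In each rat 30 to 38 of 43 members lie below 0, and the medians reach −0.68 and −0.81 in rats H26 and H28 at 20 weeks.

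The nodules of a rat also differed from each other in these genes. The median absolute log2 ratio between both nodules of a rat was 0.381 over the members at 14 weeks and 0.441 at 20 weeks, beside 0.172 and 0.225 over all 10290 genes of at least 1 CPM. The members' value was above that of all genes in each of the 8 rats, from 0.265 against 0.246 in F06 to 0.772 against 0.223 in H28. The widest ratio of Cyp2c11 was 2.26 on the log2 scale, in rat H28 at 20 weeks, where nodule 1 held 665 CPM and nodule 2 held 139. Cyp2e1 reached its lowest level, 298 CPM, in the same nodule 2 of H28. Without that nodule, 5 members rose and 30 fell in the 20-week nodules, and without nodule 1 of F06, 6 rose and 32 fell at 14 weeks.

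Whether the effect of DEN on NT liver differed between ages was tested as an interaction. From 8 to 14 weeks, the log2 fold change of 1 member moved up and that of 5 moved down of the members tested, where 3.4% of 11219 genes moved up and 3.11% down. Leaving out 1 rat gave 0 (without H08) to 3 up and 2 (as without F09) to 12 (without F06) down, and DESeq2 gave 3 and 11. Cyp1a1 gained 2.04 ± 0.48 on the log2 scale (adjusted p = 0.018). Cyp2c11 moved by −1.45 ± 0.37 (adjusted p = 0.0266), Cyp3a9 by −1.30 (adjusted p = 0.0431), Cyp2f4 by −0.76 ± 0.14 (adjusted p = 0.00661), Cyp2e1 by −0.75 ± 0.20 (adjusted p = 0.0266) and Cyp4f1 by −0.52 (adjusted p = 0.0308). None of the 6 passed the threshold with all 8 groups in 1 fit. Leaving out 1 rat ended the call of Cyp1a1 (without H08), of Cyp2e1 (without H08, H09, H12 or H21), and of Cyp2c11, Cyp3a9 and Cyp4f1 (without any of 6, 11 and 8 rats), and not that of Cyp2f4. From 14 to 20 weeks no member passed in NT liver, where 0.338% of 11245 genes moved up and 0.365% down (12 members and 1912 genes at an unadjusted p under 0.05, DESeq2 called 3 higher and 1 lower, and leaving out 1 rat gave 3 higher without F06 or H28, 2 higher without H23 and 2 higher and 1 lower without H26). In the nodules none passed either, with 0.00862% of 11607 genes up and 0.0775% down (2 members and 378 genes at an unadjusted p under 0.05, and DESeq2 called 0 members).

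The counts of gene lists in the following paragraphs stand in the order NT liver at 8, 14 and 20 weeks and nodules at 14 and 20 weeks, where 5.21%, 9.85%, 3.82%, 15.2% and 15.2% of all genes fell and 16.5%, 22.8%, 14.3%, 23.9% and 23.6% rose. Grouped by sex bias, the 6 male-biased P450s of rat liver (Cyp2c11, Cyp2c13, Cyp3a2, Cyp3a18, Cyp2a2 and Cyp4a2) gave 2, 5 and 1 falls in NT liver at 8, 14 and 20 weeks and 6 in the nodules at each age, with no rise. Their median log2 fold change was −0.35, −0.92, −0.36, −1.25 and −1.19 in that order, beside a median near 0 for all genes. The 4 female-biased P450s in the list went both ways, and Cyp3a62, which is not in it, rose in all 5 comparisons. Cyp2c12 rose in all 5 comparisons, Cyp2c7 fell in all 5, Cyp3a9 in 4 and Cyp2a1 in 2.

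By inducer, the 4 Cyp4a genes under PPARalpha gave 3, 3 and 1 falls in NT liver and 4 in the nodules at each age. Of the 10 P450s inducible through CAR and PXR (9 tested at 8 weeks), Cyp3a62 rose throughout, and 1, 5, 4, 7 and 9 fell. Of the 4 genes inducible through the aryl hydrocarbon receptor, 3 were tested. Cyp1a1 rose and Cyp1a2 fell in every comparison, and Cyp2s1 fell only in NT liver at 14 weeks (−0.72). Of 12 tested hydroxylases and epoxygenases of fatty acids, eicosanoids and vitamins, 0, 4, 1, 6 and 6 fell and 1, 2, 1, 2 and 1 rose, among them Cyp4b1 each time. Of 9 tested P450s of other families, 1, 2, 1, 2 and 4 fell and 2, 2, 3, 2 and 3 rose, beside 3.82% to 15.2% and 14.3% to 23.9% of all genes.

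Among the partners of the P450s, Por, the reductase that feeds them all, had log2 fold changes of 0.05, 0.39 and 0.09 in NT liver at 8, 14 and 20 weeks and rose by 0.61 ± 0.18 (adjusted p = 0.0197) in the 14-week nodules, with 0.49 at 20 weeks. Of 6 electron donors and partners, Cyb5r3, Cyb5b and Pgrmc2 fell in all 5 comparisons, while 0, 1, 0, 2 and 1 rose. Besides Por, this was the heme-binding protein Pgrmc1, higher by 0.54 in NT liver at 14 weeks and by 0.75 and 0.70 in the nodules at 14 and 20 weeks. Cyb5r3, the cytochrome b5 reductase, fell by 0.68, 0.91, 0.78, 0.87 and 1.01, and Pgrmc2, a relative of Pgrmc1, by 0.66, 1.07, 0.70, 1.33 and 1.22. Of 12 genes of heme synthesis and breakdown, 0, 2, 1, 2 and 2 fell and 0, 0, 1, 1 and 1 rose, where 3.82% to 15.2% of all genes fell and 14.3% to 23.9% rose. These were Ppox and Alad of heme synthesis, with Ppox lower by 0.66, 0.60, 0.53 and 0.77 from 14 weeks on, and the heme oxygenase Hmox1, higher by 0.61, 0.54 and 0.81 in NT liver at 20 weeks and in the nodules.

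Of 12 tested sensors and regulators of P450 genes, 3, 4, 4, 5 and 8 fell and 1, 1, 0, 1 and 0 rose, against 5.21%, 9.85%, 3.82%, 15.2% and 15.2% of all genes that fell and 14.3% to 23.9% that rose. Hnf4a, the hepatocyte nuclear receptor that many P450 promoters need, fell by 0.51, 0.54, 0.85, 0.88 and 1.14. Bcl6, a repressor more abundant in male liver, fell by 2.21 (adjusted p = 0.0328) at 8 weeks, by 1.75 in NT liver at 20 weeks and by 2.16 in the nodules at 20 weeks, and gave −0.80 and −1.08 at 14 weeks. Cux2, a factor of female liver, rose by 0.76 and 1.14 in NT liver at 8 and 14 weeks and by 1.29 in the 14-week nodules (adjusted p = 0.0468), and gave 0.15 and −0.11 at 20 weeks. Rxra, the partner of CAR, PXR and PPARalpha, fell by 0.79 in NT liver at 14 weeks and by 1.90 and 1.41 in the nodules.

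Markers of other cell types moved with these results, and their part in them was not tested. All 5 tested cholangiocyte markers were higher in every comparison but the 8-week one, where 3 were. Their sum ran from 16.4 to 24.5 CPM without DEN over all ages, from 30.5 to 90.5 in NT liver and from 49.2 to 215 in the nodules, and Krt19 rose by 4.58 and 5.21 in the nodules. Of 7 tested stellate and fibroblast markers, 5, 5, 3, 4 and 4 rose, Pdgfrb fell by 0.58 in NT liver at 14 weeks, and Col1a2 is listed at 0 in all libraries, while 5 of 6 endothelial markers rose in each comparison. Of 6 macrophage markers, 1, 1, 2, 1 and 2 rose, where 16.5%, 22.8%, 14.3%, 23.9% and 23.6% of all genes did. Lymphocyte markers rose in 6 of 7, 2 of 5, 3 of 6, 4 of 7 and 4 of 7 tested.

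Hepatocyte markers were present in all libraries, with a sum of 284646 to 333739 CPM without DEN, 192498 to 308460 in NT liver and 137003 to 257019 in the nodules. Of the 8, 1, 6, 1, 6 and 5 fell, against 5.21%, 9.85%, 3.82%, 15.2% and 15.2% of all genes, and Apoa1 rose in all comparisons but the 8-week one. Their median log2 fold change was −0.14, −0.60, −0.24, −0.88 and −0.69, beside −0.27, −0.59, −0.35, −0.91 and −0.99 for the P450 members. Of the 10 or 11 tested pericentral markers other than P450s, 1, 3, 5, 6 and 7 fell and the ammonium transporter Rhbg rose each time, by 3.50, 4.11, 2.79, 4.29 and 3.47. Of 10 periportal markers, 3, 4, 3, 5 and 7 fell, among them Hal, lower by 0.86, 0.62, 1.32 and 1.45 from 14 weeks on, while 1, 2, 0, 2 and 0 rose. These were Aldh1b1, higher by 1.70 and 1.64 in NT liver at 8 and 14 weeks and by 1.41 in the 14-week nodules, and Cdh1, higher by 0.69 and 0.51 in NT liver and nodules at 14 weeks.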

How the data were processed

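Stranded mRNA libraries were sequenced as read pairs. Per the methods of the study, the authors aligned them to rn6 with STAR 2.7.1a and counted exons with HTSeq in reverse-strand mode, leaving out read pairs that mapped to several places, which lowers the counts of close copies. The deposited values are raw counts per gene and library. The 5 summary lines of each table were left out of library sizes and tests. They held 21.5% to 34.5% of pairs assigned to no exon, 7.96% to 16.3% not mapped uniquely and 0.816% to 1.56% ambiguous. The deposited counts were not normalized; the authors' own analysis used DESeq2 1.22.2.

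CPM were scaled by TMM in edgeR 4.0.16 (R 4.3.3). Genes kept by filterByExpr were tested with edgeR's robust quasi-likelihood test, with only the groups compared in each fit and the counts of the 2 nodules of a rat added, so that the rat was the replicate. The standard error is the log2 fold change over the square root of F. DESeq2 1.42.0 was an alternative. Depth limits rows near 0.1 CPM, which had few counts.

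Members and gene lists were chosen with earlier results of these data known. Values in every control and NT liver, with the range and median of the nodules, are given for Cyp2e1, for the most counted member of each family, and per comparison for up to 3 called members with the largest rise and up to 3 with the largest fall at a mean of at least 1 CPM; Cyp3a62 was added after its values were seen. For the other lists up to 3 genes with the largest called changes and Por are named, beside Pgrmc1, Aldh1b1, Cdh1 and Pdgfrb, chosen after their values were seen, with values of Bcl6 and Cux2 in the remaining comparisons. NT liver and nodules pair by the rat number in the sample labels. Deviations of the same rat's NT liver and nodules from their group means correlated at 0.386 to 0.615 over genes.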

Additional observations from a re-analysis of the deposited data

Results flagged for a closer look

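Of 120 groups of 4 or 8 libraries tested over 15 members, 8 held a library far from the others, where chance alone gives about 5%. Among livers without DEN, Cyp2e1 was highest in rat H13 at 20 weeks (2930.0 CPM, the next at 2537), and at 14 weeks Cyp1a2 was highest in H09 (619.6 CPM, the next at 389). At the same age Cyp3a18 was lowest in H10 (508 CPM, the next at 594), Cyp4a2 lowest in H12 (669 CPM, the next at 726) and Cyp4a3 highest in H11 (136 CPM, the next at 121). In NT liver at 14 weeks, Cyp4b1 was highest in H22 (20.2 CPM, the next at 11.7) and Cyp4a3 in H23 (57.8 CPM, the next at 44.1). In the 20-week nodules, Cyp4a2 was highest in nodule 2 of H25 (401 CPM, the next at 186).

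The effect of DEN on NT liver differed between 8 and 14 weeks, by the interaction term of edgeR's quasi-likelihood test, for Cyp1a1 (log2 difference 2.04), Cyp2c11 (−1.45), Cyp3a9 (−1.30), Cyp2f4 (−0.76), Cyp2e1 (−0.75) and Cyp4f1 (−0.52). Over all genes tested, 3.4% moved up and 3.11% down. None of these calls passed with all 8 groups in 1 fit, and all but that of Cyp2f4 were lost when certain single rats were left out.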

How the results depend on the processing

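Of 368 alternative counts of members, 310 stayed within 1.5 times the reported count, or at 0 where the reported count was 0. The cause of the other changes was not tested. With the thresholds raised to an absolute log2 fold change of 1 and an adjusted p of 0.01, the members that fell numbered 2, 9 and 3 in NT liver at 8, 14 and 20 weeks and 15 and 18 in the nodules at 14 and 20 weeks, and 0 moved either way between 8 and 14 weeks. With library size alone they numbered 3, 10, 6, 14 and 21, with 8 higher at 8 weeks and 2 higher and 2 lower between 8 and 14 weeks, and Cyp2e1 in NT liver at 14 weeks turned to 0.0913. Without rats numbered F, 11 fell at 8 weeks, 3 moved up between 8 and 14 weeks and 1 between 14 and 20 weeks. With the rat as replicate block, nodules against NT liver at 20 weeks gave 3 higher and 24 lower, and the block changed no count at 14 weeks. That comparison gave 2 and 8 with DESeq2, 2 and 14 with all 8 groups in 1 fit, and 1 lower with nodule 1 alone. DESeq2 gave 1 lower in nodules against NT liver at 14 weeks, 3 up and 11 down between 8 and 14 weeks, and 3 up and 1 down between 14 and 20 weeks. All 8 groups in 1 fit gave 0 and 0 between 8 and 14 weeks, and no filter gave 1 up between 14 and 20 weeks. Leaving out 1 rat at a time gave 4 (without F09) to 9 (without H05) falls at 8 weeks, 7 (without H26) to 15 (without H25) in NT liver at 20 weeks, 0 to 1 rises and 0 to 4 falls (without H25) for nodules against NT liver at 20 weeks, 0 (without H08) to 3 up and 2 to 12 (without F06) down between 8 and 14 weeks, and 0 to 3 up and 0 to 1 down between 14 and 20 weeks in NT liver. Scaling by RLE left all 144 subfamily sums within 1 SD. Of 1383 alternative values of single genes, 1243 kept their direction and side of the threshold, 115 no longer passed, 24 newly passed and 1 turned.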
